A study of Mus musculus with 7 samples.

Results

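Fibulins and the other proteins of elastic fibres are the subject here: 9 genes, Fbln1, Fbln2, Fbln5, Efemp1, Efemp2, Eln, Fbn1, Lox and Loxl1, taken by symbol from the 21861 rows of a gene count table. All 9 were in the table and passed the expression filter, among 15075 genes tested. The symbols were listed by family, with results of these data known, and Fbln1 was singled out for its lower level in the AAV-GSTA4 libraries. Its fold change is therefore given as a description without a test.

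The libraries were prepared from the retinal pigment epithelium, or RPE, a pigmented monolayer between photoreceptors and choroid, of mice labelled old. These mice were treated with adeno-associated virus (AAV) encoding GFP as the control (3 libraries, AAV-GFP) or GSTA4, a glutathione transferase acting on reactive lipid aldehydes (4 libraries, AAV-GSTA4). All were taken 12 weeks after treatment, so that aged animals, AAV delivery and this interval are shared by both groups. Strain, sex, age in months, the promoter of the vectors and any pooling of animals are not given in the sources used here, and p-values measure the spread between these libraries.

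Elastic fibres are built on a scaffold of fibrillin microfibrils onto which tropoelastin is deposited and cross-linked. Fibulins are secreted glycoproteins with repeated calcium-binding EGF-like modules, and several of them guide this assembly, while lysyl oxidases form the cross-links. In the eye an elastic layer lies within Bruch's membrane, the sheet of matrix under the RPE, and EFEMP1 is known for a mutation that causes an inherited macular dystrophy with deposits beneath the RPE.

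Total counts ranged from 15329181 to 28998964 per library, and 3 counts corresponded to 0.111 to 0.176 CPM (reads normalised for library size, here with trimmed-mean scaling, TMM). AAV-GFP replicate 3 stood apart: log2 CPM correlated with the other libraries at 0.838 on average, against 0.910 to 0.926 for the remaining 6. The hGSTA4 row, the transgene by its name, was at or below 0.140 CPM in every AAV-GFP library, and in AAV-GSTA4 replicates 1 to 4 it reached 222, 251, 2.64 and 43.7 CPM. AAV-GSTA4 replicate 2 held a sum of 5068 CPM over 5 lens fibre markers, where the other 6 libraries held 50.6 to 320 CPM. AAV-GSTA4 replicates 1 and 3 held 54.9 and 60.8 CPM over 4 ocular surface epithelium markers, where the others held 469.5 to 612 CPM. RPE markers were abundant, for example Rgr at a mean of 26169 CPM in AAV-GFP and 49094 in AAV-GSTA4, although Best1 was near 2 CPM in both (2.28 and 2.46). In bulk RNA, fewer cells of a type and less RNA per cell cannot be told apart.

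The upstream sequences of 4 fibulin genes are shown because these genes form the opposed pairs described below: Fbln1 and Efemp1, with lower mean levels in AAV-GSTA4, and Fbln5 and Efemp2, with higher ones. Each is the 250 bases before the RefSeq transcription start farthest upstream (GRCm38.p6, the mouse build named in the submitters' processing notes), written 5′ to 3′ on the gene's strand. Capitals mark matches on either strand to GGGCGG (a GC box), CCAAT or CACGTG (an E-box). The windows lie at chr15:85205699-85205948 on the plus strand for Fbln1, chr11:28852955-28853204 on the plus strand for Efemp1, chr12:101819120-101819369 on the minus strand for Fbln5, and chr19:5473696-5473945 on the plus strand for Efemp2.
Fbln1: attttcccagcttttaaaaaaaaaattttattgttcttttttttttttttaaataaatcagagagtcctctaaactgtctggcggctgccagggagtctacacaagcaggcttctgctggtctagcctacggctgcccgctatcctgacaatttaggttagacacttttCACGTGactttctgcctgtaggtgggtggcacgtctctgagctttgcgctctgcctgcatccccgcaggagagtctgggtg
Efemp1: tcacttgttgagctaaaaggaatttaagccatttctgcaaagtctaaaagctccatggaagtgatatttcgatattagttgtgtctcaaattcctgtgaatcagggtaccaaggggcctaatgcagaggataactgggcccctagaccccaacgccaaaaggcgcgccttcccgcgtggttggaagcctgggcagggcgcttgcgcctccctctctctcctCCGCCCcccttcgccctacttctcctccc
Fbln5: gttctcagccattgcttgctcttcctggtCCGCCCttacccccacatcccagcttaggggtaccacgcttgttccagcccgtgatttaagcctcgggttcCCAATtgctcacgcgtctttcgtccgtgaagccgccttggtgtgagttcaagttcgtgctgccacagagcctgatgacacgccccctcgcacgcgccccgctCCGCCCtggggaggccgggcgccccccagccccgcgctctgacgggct
Efemp2: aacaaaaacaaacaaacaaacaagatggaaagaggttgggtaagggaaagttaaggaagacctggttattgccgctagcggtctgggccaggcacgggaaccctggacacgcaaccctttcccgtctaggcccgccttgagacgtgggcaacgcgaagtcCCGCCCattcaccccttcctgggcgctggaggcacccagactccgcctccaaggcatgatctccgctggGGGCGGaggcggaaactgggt

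The Fbln1 window held 46.4% G and C and the Efemp1 window 53.6%, against 65.2% for Fbln5 and 59.2% for Efemp2 and a median of 52.4% over 32851 windows of this length in the RefSeq table. A GC box was found in the Efemp1, Fbln5 and Efemp2 windows and in 32.7% of all windows, and no match to these letters was found for Fbln1. The Fbln1 window had the E-box, present in 6.02% of all windows. The Fbln5 window had CCAAT, present in 33.8%. Searches for TATAAA (12.4% of all windows), TAATCC (6.25%), the antioxidant response element core TGACNNNGC (10.2%) and TGACTCA (4.46%) found no match in these 4 windows. The Fbln2 and Fbn1 windows, searched but not shown, held 58.8% and 59.2% G and C, each with a GC box. Fbln2 had a negative log2 fold change and Fbn1 a positive one. A match of letters is a description of the window only.

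Fibulin 1, a matrix and basement membrane fibulin that also binds the protease ADAMTS1, had the largest difference of the 9 genes. Its gene spans chr15:85205949-85286535 (GRCm38, GENCODE M21). In AAV-GFP replicates 1 to 3, Fbln1 was measured at 43.4, 103 and 50.5 CPM. The values for replicates 1 to 4 of AAV-GSTA4 were 31.3, 32.3, 12.5 and 22.5 CPM, and this order of replicates is kept below. Every AAV-GSTA4 library was below every AAV-GFP library, which is the property it was chosen for. The group means were 65.8 ± 32.8 (SD, n = 3) and 24.7 ± 9.21 (SD, n = 4) CPM, a fitted level 2.67-fold lower in AAV-GSTA4 (log2 fold change -1.42 ± 0.39, SE). The gap between the groups was narrow, from 43.4 down to 32.3 CPM, and the size of the difference leaned on AAV-GFP replicate 2, without which the log2 fold change was -0.92.

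The order of Fbln1 within each group was set beside the vector rows. In AAV-GSTA4, Fbln1 was highest in replicates 1 and 2, which had the most hGSTA4, and lowest in replicate 3, which had the least. In AAV-GFP it was highest in replicate 2 and lowest in replicate 1, and the d2EGFP row, at 4.61, 153 and 113 CPM in replicates 1 to 3, had the same order. The d2EGFP row was at 8.58, 3.07, 0.411 and 0.959 CPM in AAV-GSTA4, so that for this row AAV-GFP replicate 1 lay within the AAV-GSTA4 range. These orders rest on 4 and 3 libraries and were not tested.

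Fibulin 5, encoded by Fbln5 at chr12:101746565-101819055, tethers elastic fibres to cells through integrins. Fbln5 was at 99.4, 109 and 60.9 CPM in AAV-GFP and at 156, 119, 164 and 160.5 CPM in AAV-GSTA4. All 4 AAV-GSTA4 libraries were above all 3 AAV-GFP libraries. The fitted level was 1.67-fold higher in AAV-GSTA4 (log2 fold change 0.74 ± 0.26, SE). With p-values adjusted over all genes by the Benjamini-Hochberg method, it was at 0.373 in the quasi-likelihood test of edgeR and did not pass the threshold of 0.05.

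EFEMP1 (fibulin 3) and EFEMP2 (fibulin 4) are short fibulins of similar domain order, and EFEMP2 brings lysyl oxidase to tropoelastin. Efemp1, at chr11:28853204-28926743, was at 168, 219 and 112 CPM in AAV-GFP and at 98.5, 139, 61.3 and 105 CPM in AAV-GSTA4. The groups overlapped, because AAV-GSTA4 replicate 2 exceeded AAV-GFP replicate 3. The fitted difference was -0.72 ± 0.32 (SE) on the log2 scale (edgeR, adjusted p = 0.413), and -0.47 without AAV-GFP replicate 2, its highest library. Efemp2, at chr19:5473954-5482517, was at 58.2, 58.3 and 32.9 CPM in AAV-GFP and at 87.5, 65.1, 98.6 and 83.5 CPM in AAV-GSTA4, without overlap. Efemp2 differed by 0.75 ± 0.26 (SE) on the log2 scale (edgeR, adjusted p = 0.373). It shares 173 exonic bases, 4.57% of its exonic length, with Mus81 on the other strand, and the strand setting of the counting is not given in the sources used here.

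Fibulin 2, which joins elastic fibres and basement membranes, was scarce. Fbln2 (chr6:91212455-91272540) was at 5.45, 5.14 and 7.97 CPM in AAV-GFP and at 8.32, 2.40, 4.94 and 2.88 CPM in AAV-GSTA4, where replicate 1 was above the AAV-GFP range and the other 3 were below it. The log2 fold change of -0.42 was smaller than its SE of 0.50, and the adjusted p in edgeR's test was 0.761.

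**Figure D1:**
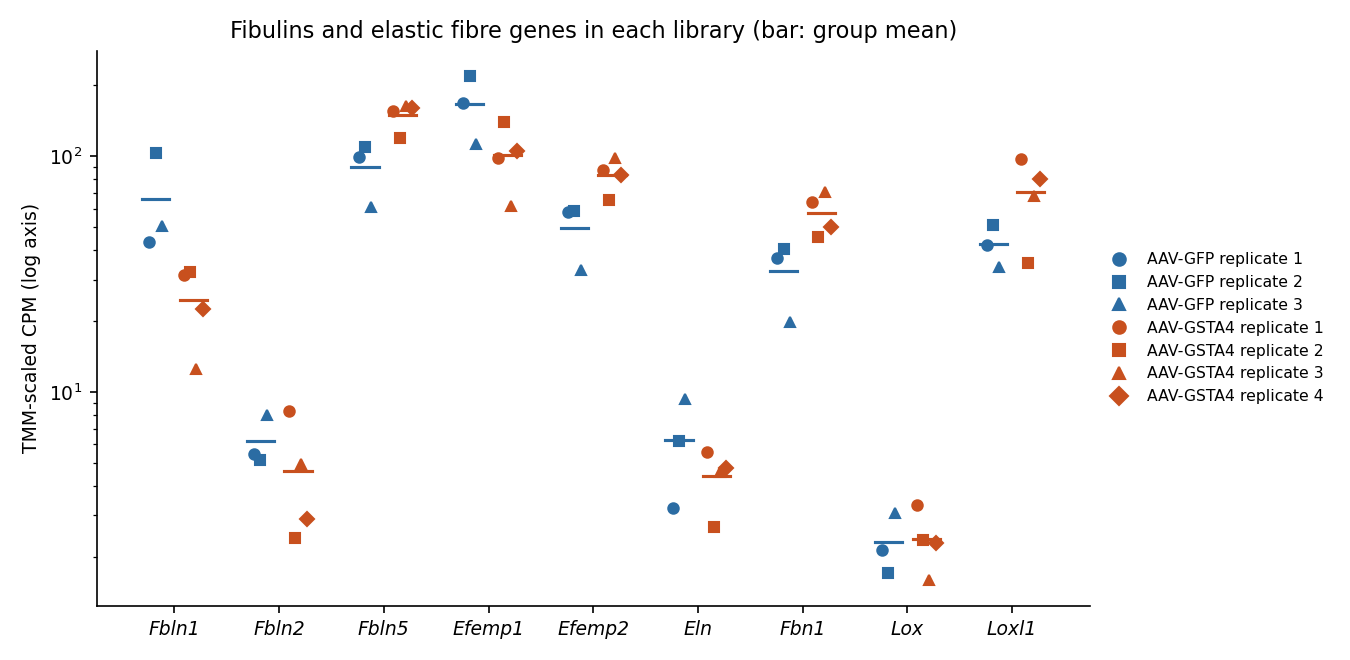
Level of each of the 9 genes in each library, in TMM-scaled CPM on a log axis; symbols give the replicate, blue AAV-GFP and orange AAV-GSTA4, and bars the group means. Fbln1 lies lower in all AAV-GSTA4 libraries, Fbln5, Efemp2 and Fbn1 lie higher in all of them, and the other 5 genes overlap between the groups.

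The fibre's structural proteins differed from each other. Fibrillin 1, the main microfibril protein, is encoded by Fbn1 at chr2:125300594-125507993. Fbn1 was at 37.1, 40.5 and 19.8 CPM in AAV-GFP and at 64.1, 45.3, 70.3 and 50.03 CPM in AAV-GSTA4, without overlap. The fitted log2 fold change was 0.82 ± 0.29 (SE; edgeR, adjusted p = 0.373). Of its exonic bases in GENCODE M21, 20.1% are also annotated to Gm9913 on the opposite strand, which has no row in the count table.

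Eln, the gene of tropoelastin (chr5:134702593-134747323), was at 3.22, 6.22 and 9.36 CPM in AAV-GFP and at 5.58, 2.69, 4.58 and 4.76 CPM in AAV-GSTA4. The lowest AAV-GFP library was below 3 of the AAV-GSTA4 libraries. The fitted difference was -0.51 ± 0.46 (SE) on the log2 scale (edgeR, adjusted p = 0.682). Without AAV-GFP replicate 3, where Eln was highest, the log2 fold change was -0.11. In that library the summed level of 8 endothelial markers was 164 CPM, against 34.0 to 54.9 CPM in the other 6. Kdr alone held 104 of the 164 CPM. Pecam1, Cdh5, Vwf and Tie1 were also highest there, whereas Tek was lowest and Emcn and Plvap were highest in AAV-GFP replicate 2. The part of endothelial RNA in the Eln level was not tested.

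The cross-linking enzymes were unequally expressed. Lysyl oxidase, encoded by Lox, was the scarcest of the 9, at 2.14, 1.70 and 3.07 CPM in AAV-GFP and at 3.32, 2.35, 1.59 and 2.29 CPM in AAV-GSTA4. The ranges lay almost on each other. The fitted log2 difference of 0.05 ± 0.54 (SE; edgeR, adjusted p = 0.981) turned to -0.28 with library totals in place of TMM. Loxl1 (chr9:58287738-58313186), a lysyl oxidase relative that maintains elastic fibres and is linked to exfoliation syndrome in the human eye, was at 41.9, 51.2 and 34.0 CPM in AAV-GFP and at 97.7, 35.3, 67.9 and 79.9 CPM in AAV-GSTA4. Replicates 1, 3 and 4 of AAV-GSTA4 were above every AAV-GFP library, and replicate 2 was within their range. Loxl1 had a fitted log2 fold change of 0.73 ± 0.33 (SE; edgeR, adjusted p = 0.427).

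Of the 8 genes other than Fbln1, 0 passed an adjusted p of 0.05 in edgeR's test, as did 0% of all 15075 genes. At the unadjusted level, 4 of the 8 had a p under 0.05 (DESeq2 gave 5), 3 of them higher in AAV-GSTA4 (Fbln5, Efemp2 and Fbn1) and 1 lower (Efemp1). Over all genes, 11.9% did, 5.27% higher and 6.63% lower. The groups did not overlap for 3 of the 8, all higher, where 12.0% of all genes did not overlap and 6.44% were higher. With Fbln1, chosen on this contrast, the count is 4 of 9, and 5.61% of all genes were lower without overlap. The median log2 fold change of the 8 was 0.39, beside -0.07 for all genes. Without AAV-GSTA4 replicate 3 the number at an unadjusted p under 0.05 was 2 of the 8, and over all genes it was 1032 of 14999, or 6.88%.

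In AAV-GSTA4 replicate 2, the library with the high lens fibre sum, Fbln5, Efemp2, Fbn1 and Loxl1 were the lowest of their group. Efemp1 and Fbln1 were the highest. This library also had the most hGSTA4, at 251 CPM. In replicate 3, with the least hGSTA4 (2.64 CPM), Fbln5, Efemp2 and Fbn1 were the highest of their group and Efemp1 and Fbln1 the lowest. Loxl1 was highest in replicate 1. Without replicate 2 the log2 fold changes were 0.85 for Fbln5, 0.87 for Efemp2, 0.94 for Fbn1 and 0.96 for Loxl1. They were -0.91 for Efemp1 and -1.57 for Fbln1, and each was larger in size than with replicate 2. The part of lens RNA or of the transgene level in these levels was not tested.

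With library totals the median of all genes moved from -0.07 to -0.37. The log2 fold changes were then 0.48 for Fbln5, 0.49 for Efemp2, 0.57 for Fbn1, 0.46 for Loxl1, -1.68 for Fbln1 and -0.97 for Efemp1, so that the higher genes lay nearer to 0 and the lower ones farther from it. Relative to that median, Fbln5 was at 0.81 with TMM and 0.85 with library totals, Efemp2 at 0.82 and 0.86, Fbn1 at 0.89 and 0.94, and Loxl1 at 0.80 and 0.83. Fbln1 was at -1.34 and -1.31 and Efemp1 at -0.65 and -0.60. Subtracting the median largely undoes the change of scaling by construction.

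Y-linked counts divided the libraries into those with 307 to 465 CPM (AAV-GFP replicate 1, AAV-GSTA4 replicates 3 and 4) and those with 2.83 CPM or less. Since the groups do not overlap over all 7 libraries for Fbln1, Fbln5, Efemp2 and Fbn1, they cannot overlap within a class for these 4 genes. For Efemp1 the second class overlapped. A class held at most 2 libraries of a group, so no test was made within it.

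Ratios of counts between 2 genes within a library do not depend on the scaling, and are given here for pairs chosen after their values were seen. Fbln1 counts were 0.436, 0.946 and 0.830 of Fbln5 counts in AAV-GFP and 0.201, 0.271, 0.0763 and 0.140 in AAV-GSTA4. The lowest AAV-GFP ratio, in replicate 1, was above the highest AAV-GSTA4 ratio, in replicate 2. This follows by arithmetic from the levels, because Fbln1 was lower and Fbln5 higher in every AAV-GSTA4 library. Fbln1 was chosen as lower, so the ratio adds no further result. Efemp1 counts were 2.88, 3.76 and 3.41 times those of Efemp2 in AAV-GFP and 1.13, 2.14, 0.622 and 1.26 times in AAV-GSTA4. The groups did not overlap for this ratio either, although they did for Efemp1 alone. Efemp2, the denominator, was itself higher in every AAV-GSTA4 library, which lowers the ratio there. How many other pairs of genes have ratios without overlap was not examined. In AAV-GSTA4 replicate 3 Efemp1 had fewer counts than Efemp2. By contrast, the ratio of Fbln5 to Efemp2 stayed between 1.66 and 1.92 over all 7 libraries, and that of Fbn1 to Fbln5 between 0.312 and 0.429.

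**Figure D2:**
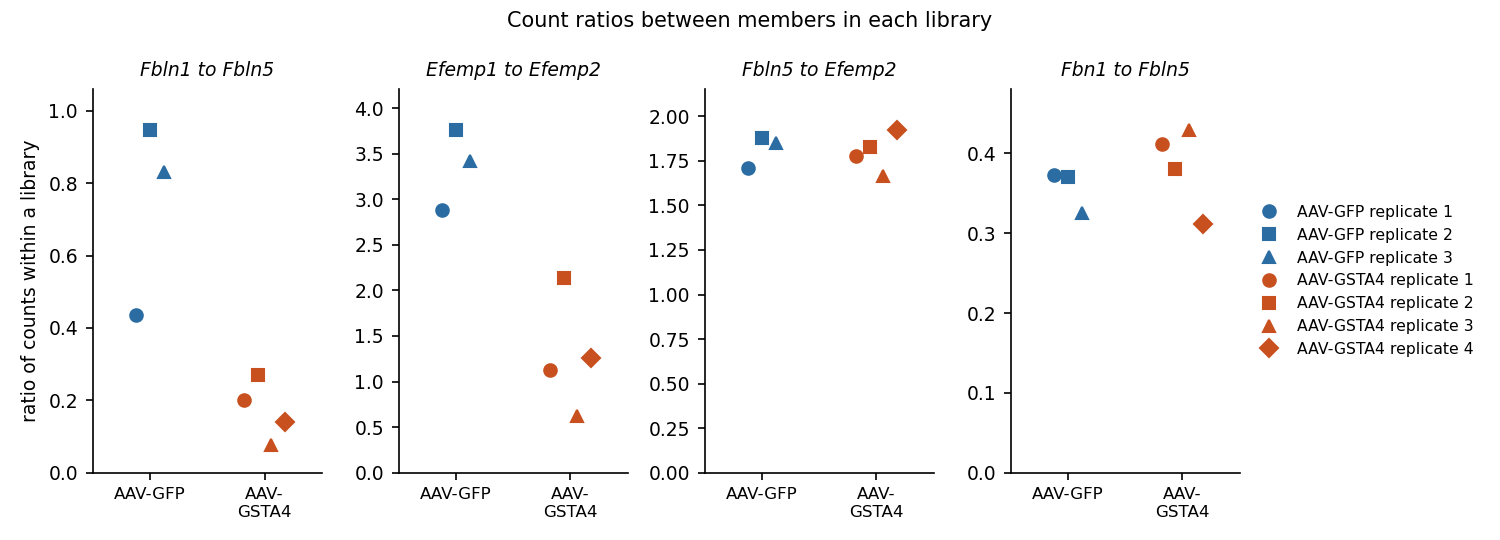
Ratio of read counts between 2 genes within each library, 1 panel a pair, each axis starting at 0; symbols give the replicate and colours the group. The ratios of Fbln1 to Fbln5 and of Efemp1 to Efemp2 are lower in every AAV-GSTA4 library, while Fbln5 to Efemp2 stays between 1.66 and 1.92 in all 7. Fbln5 and Efemp2 are themselves higher in every AAV-GSTA4 library and Fbln1 lower, so the separation of Fbln1 to Fbln5 follows from the levels.

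The likeness of 2 genes was measured as the root mean square distance between their log2 CPM over the 7 libraries, each centred on its own mean. Of the 36 pairs of members, the closest were Fbln5 and Efemp2, at a distance of 0.07, Efemp2 and Fbn1, at 0.11, and Fbln5 and Fbn1, at 0.15. Loxl1 followed these 3 at 0.32 to 0.38. Fbln1 was closest to Efemp1, at 0.46, and farthest from Fbn1, at 1.30, the largest distance of the 36. Fbln2, Eln and Lox lay 0.47 to 0.58 from each other. The distances describe 7 libraries of 2 groups, and genes that differ between the groups in the same direction are close for that reason too.

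The summed level of 13 RPE markers was 70777, 55719 and 23308 CPM in AAV-GFP and 83662, 61822, 112119 and 92018 CPM in AAV-GSTA4, and 12 of the 13 had a positive log2 fold change. This sum was the closest of 11 marker list sums to Fbn1 (distance 0.24) and the second closest to Efemp2 (0.24) and Fbln5 (0.28). The macrophage list was closest to both of these (0.23 and 0.22). Its sum had group means of 538 and 685 CPM, of which Csf1r held 208 and 450, whereas 7 of its 8 genes had negative log2 fold changes. The RPE sum also leaned on 1 gene, with Rgr at means of 26169 and 49094 CPM of 49934.5 and 87405. The lowest RPE sum and the lowest Fbln5, Efemp2 and Fbn1 were all in AAV-GFP replicate 3. Without that library the log2 fold changes were 0.52 for Fbln5, 0.52 for Efemp2 and 0.56 for Fbn1. The part of RPE content in these levels was not tested.

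Fbln1 and Efemp1 followed no marker list as closely. For Efemp1 the nearest was the sum of 6 Mueller glia markers, at 0.43. This sum was mostly Dkk3 and Glul, at means of 606 and 371 of 1220 CPM in AAV-GFP. In AAV-GSTA4 they were at 483 and 427 of 1122 CPM. Of the 6 genes, 3 had negative log2 fold changes. The part of Mueller glia RNA in the Efemp1 level was not tested. For Fbln1 the nearest was the sum of 10 rod photoreceptor markers, at a distance of 0.69; this sum was 13679 to 37493 CPM in AAV-GFP and 6892 to 12820 CPM in AAV-GSTA4, with all 10 genes at negative log2 fold changes. Its order differed from that of Fbln1, which was lowest in AAV-GSTA4 replicate 3 while the rod sum was lowest in replicate 4. The part of rod RNA in the Fbln1 level was not tested. Fibroblast markers, from cells that make elastic fibres in other tissues, summed to 1065, 706 and 215 CPM in AAV-GFP and to 335 to 709 CPM in AAV-GSTA4. This sum was mostly Dcn, the gene of the proteoglycan decorin, at means of 454 and 302 CPM. The library with the highest sum, AAV-GFP replicate 1, had the least Fbln1 of its group. Of the 9 fibroblast genes 5 had negative log2 fold changes, and the groups overlapped for all 9. The part of fibroblast RNA in the levels of the 9 members was not tested. Mural cell markers summed to 187 to 396 and 328 to 460 CPM, and scleral markers to 94.9 to 236 and 166 to 272 CPM, also overlapping. No marker list had a gene at 0 counts in all libraries.

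**Figure D3:**
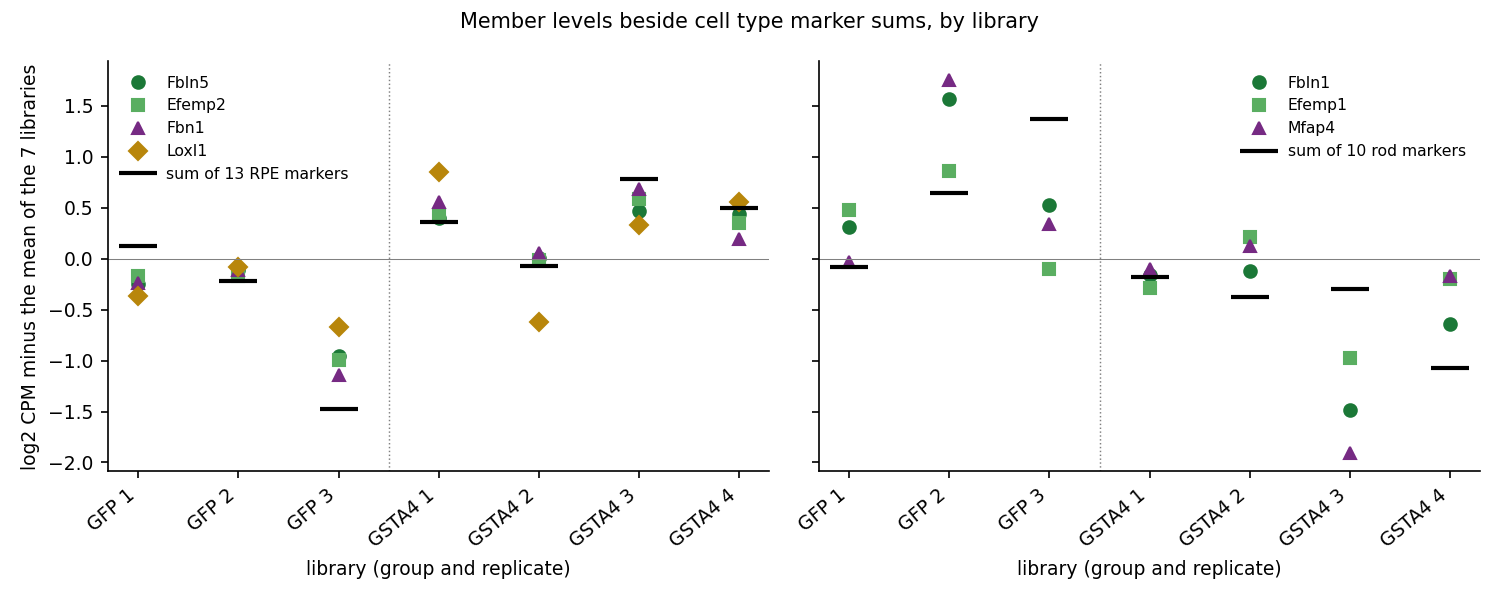
Log2 CPM minus the mean of the 7 libraries, by library, for Fbln5, Efemp2, Fbn1 and Loxl1 beside the sum of 13 RPE markers (left) and for Fbln1, Efemp1 and Mfap4 beside the sum of 10 rod markers (right); horizontal dashes are the sums and the dotted line divides the groups. Fbln5, Efemp2 and Fbn1 lie close to each other in every library and are lowest in AAV-GFP replicate 3, where the RPE sum is lowest too; Fbln1 and Mfap4 are highest in AAV-GFP replicate 2 and lowest in AAV-GSTA4 replicate 3.

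The 5 genes most like Fbln1 by this distance, among 11102 candidates above a minimum level (mean log2 CPM of 2), were Lmo2 (0.26), Fcrls (0.29), Mfap4 (0.30), Nbl1 (0.33) and Hdac2 (0.34), where the median candidate was at 0.98. Lmo2 is a LIM-domain transcription cofactor, Fcrls a receptor-like gene of microglia, Nbl1 a secreted antagonist of bone morphogenetic proteins and Hdac2 a histone deacetylase. Mfap4, a microfibril-associated protein that binds elastic fibres, was at 18.5, 63.8 and 24.0 CPM in AAV-GFP and at 17.6, 20.6, 5.05 and 16.8 CPM in AAV-GSTA4. Its highest and lowest libraries were those of Fbln1. Each of the 5 had a lower mean in AAV-GSTA4, and the likeness was the measure they were chosen by.

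Levels were compared between genes per kilobase of exonic length in GENCODE M21. In AAV-GFP, Efemp1 was the highest of the 9, at 81.7 ± 26.2 (SD, n = 3) CPM per kilobase, and lay above every other gene in every library. Fbln1 (15.1 ± 7.52), Efemp2 (13.2 ± 3.87), Fbln5 (13.01 ± 3.70) and Loxl1 (12.9 ± 2.61) followed and did not differ from each other beyond their spread. Fbn1 was at 2.68 ± 0.917, and Fbln2, Eln and Lox were each below 1 on average, at 0.971, 0.774 and 0.483 CPM per kilobase. In AAV-GSTA4 the level of Efemp1 was 49.6 ± 15.7 (SD, n = 4), still the highest. Efemp2 (22.1 ± 3.68), Fbln5 (21.7 ± 3.01) and Loxl1 (21.3 ± 7.97) came next within their spread. Fbln1, at 5.64 ± 2.11, was at rank 5 instead of rank 2, near Fbn1 at 4.74 ± 0.968. The ranges of Fbln1 (2.87 to 7.39) and Fbln5 (17.2 to 23.7) per kilobase did not overlap in AAV-GSTA4, while in AAV-GFP they did (9.93 to 23.7 and 8.81 to 15.8). Per-kilobase values are the levels above divided by a constant for each gene. The lower rank and separate range of Fbln1, which was chosen as lower, thus add no further result.

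A list of 58 symbols of further elastic fibre genes was examined. Of these, 57 matched a row of the count table (Adamtsl6, an older name of Thsd4, which is listed too, matched none) and 56 were tested (Acan, a cartilage proteoglycan, was filtered out). In edgeR's test 0 of the 56 passed an adjusted p of 0.05, and DESeq2 called 1, Timp3. At an unadjusted p under 0.05 there were 8 higher and 4 lower, beside 5.27% and 6.63% of all genes, and the median log2 fold change was -0.16 against -0.07. Of the 8 higher genes, Nid1 rested on AAV-GSTA4 replicate 2, the library with the high lens fibre sum. It was at 238 CPM there and at 8.16 to 20.9 CPM in the others. The number at an unadjusted p under 0.05 was 7 without AAV-GFP replicate 3, where 12.5% of all genes were (1917 of 15337), and 7 without AAV-GSTA4 replicate 3, where 6.88% were. Log2 fold changes were negative for 12 of 14 microfibril genes, 8 of 10 genes of the microfibril ADAMTS family, 6 of 8 genes of fibulin-binding matrix and proteases, 2 of 7 genes of cross-linking and propeptide removal, 1 of 3 other fibulins, 2 of 5 elastases, 0 of 7 integrin receptors and 0 of 2 genes of copper supply, where 55.4% of all genes were negative. Some of these signs rest on scarce genes: Emilin3, Mmrn1, Adamts17, Adamtsl2 and Papln, all negative, had 0 counts in at least 1 library. At an unadjusted p under 0.05 there were 2 microfibril genes, both lower, and 1 integrin gene. The groups overlapped for 13 of the 14 and 5 of the 7. Over the whole list the groups did not overlap for 9 of the 56, with 7 higher and 2 lower. Of all genes, 12.0% did not overlap, with 6.44% higher and 5.61% lower.

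TIMP3, an inhibitor of matrix metalloproteinases that binds EFEMP1 and whose mutations cause Sorsby fundus dystrophy, was the most abundant of the partners named here. Timp3 was at 2891, 2726 and 1516 CPM in AAV-GFP and at 6135, 4009, 6582 and 4423 CPM in AAV-GSTA4, without overlap. The fitted difference was 1.15 ± 0.36 (SE) on the log2 scale, with adjusted p = 0.363 in edgeR and 0.0235 in DESeq2. Timp3 and Efemp1, whose proteins bind, thus had log2 fold changes of opposite sign. Like the RPE marker sum, Timp3 was lowest in AAV-GFP replicate 3, and without that library its log2 fold change was 0.91. The part of RPE content in its level was not tested. Adamts1, the protease that fibulin 1 binds, was at 44.0, 35.3 and 43.7 CPM in AAV-GFP and at 14.4, 33.3, 9.05 and 29.7 CPM in AAV-GSTA4. Like Fbln1 it was lower in all AAV-GSTA4 libraries and lowest in replicate 3, at a log2 fold change of -0.92 ± 0.41 (SE; edgeR, adjusted p = 0.417). Its lowest values were in replicates 1 and 3, the libraries with the low ocular surface sums, and the part of that tissue in its level was not tested.

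Fbln7, the gene of a further fibulin, was at 11.3, 11.7 and 13.9 CPM in AAV-GFP and at 23.3, 17.6, 23.9 and 22.5 CPM in AAV-GSTA4. All AAV-GSTA4 libraries were above all AAV-GFP libraries, and the adjusted p was 0.363 in edgeR's test and 0.0521 in DESeq2 for a log2 fold change of 0.83 ± 0.24 (SE). Itgb6, an integrin chain whose heterodimer activates latent TGF-beta, was at 5.67 to 10.3 CPM in AAV-GFP and 11.2 to 24.4 CPM in AAV-GSTA4, a log2 fold change of 1.06 ± 0.35 (SE, adjusted p = 0.363 in edgeR's test).

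Among the microfibril and other matrix partners, Mfap4 was at -1.24 ± 0.52 (SE) on the log2 scale (edgeR, adjusted p = 0.401), and without AAV-GFP replicate 2 it was -0.49. Emilin2, an elastin-interface glycoprotein, was at 3.96 to 8.69 CPM in AAV-GFP and 2.29 to 3.599 CPM in AAV-GSTA4, without overlap (log2 difference -0.998; edgeR, adjusted p = 0.411). Its relative Emilin1 was at -1.08 and overlapped; without AAV-GFP replicate 3, its highest library, it was -0.53. Emilin1 was lowest in AAV-GSTA4 replicates 1 and 3, as Adamts1 was. Fbn2, the second fibrillin, was at -0.37 (-0.07 without AAV-GFP replicate 2), Ltbp4, a latent TGF-beta binding protein needed for elastic fibre assembly, at -0.47, Mfap5 at -0.33 and Mfap2 at -0.07, each with an adjusted p of at least 0.657 in edgeR's test and with overlapping groups. Mfap2 and Mfap5 changed sign when single libraries were left out. Loxl2, a further cross-linking enzyme, was at -0.66 ± 0.54 (SE), and at -0.17 without AAV-GFP replicate 3. Adamts10, a microfibril-binding member of the ADAMTS family, was at -0.62, and turned to 0.24 without AAV-GFP replicate 3, where it reached 35.8 CPM against 6.26 to 17.9 CPM elsewhere.

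**Figure D4:**
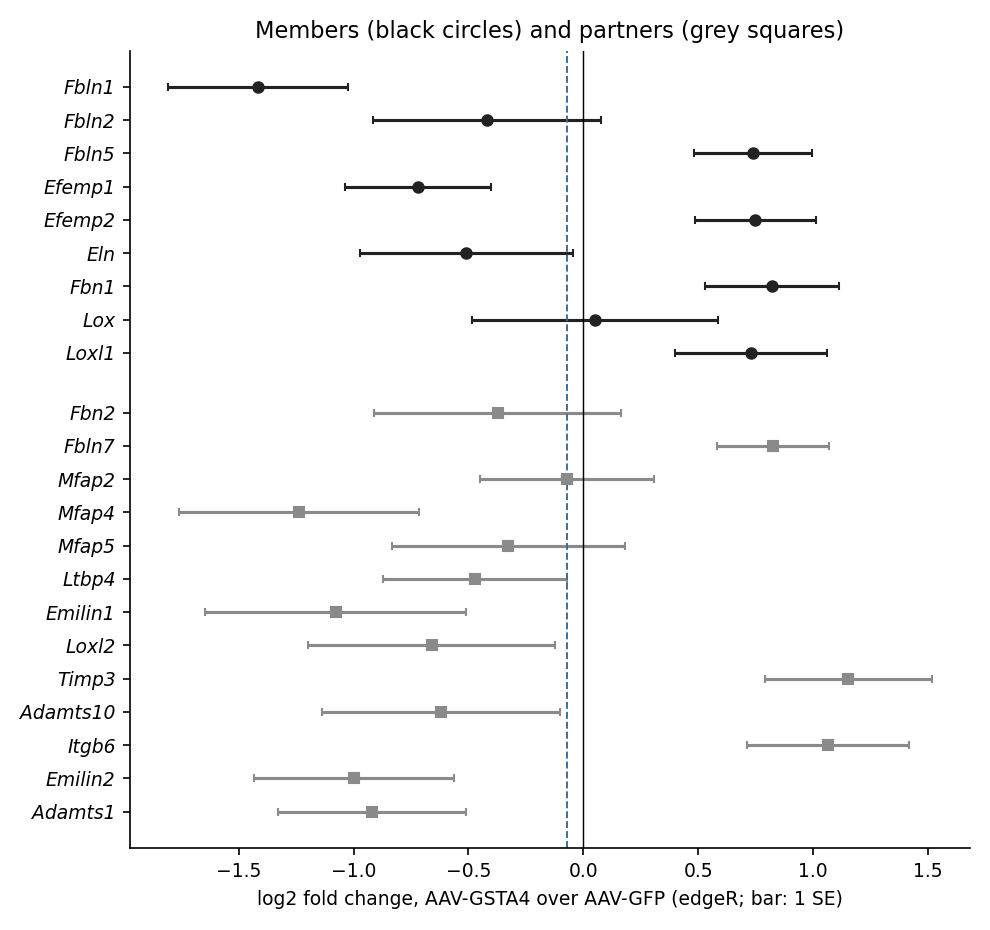
Log2 fold change of AAV-GSTA4 over AAV-GFP in the edgeR fit for the 9 members (black circles) and 13 partners (grey squares), with bars of 1 SE; the solid line is at 0 and the dashed line at -0.07, the median of all genes tested. Fbln1 and Efemp1 lie to the left, and the partners Mfap4, Emilin1, Emilin2 and Adamts1 lie farther left than Efemp1. Fbln5, Efemp2, Fbn1, Loxl1, Fbln7, Timp3 and Itgb6 lie to the right. Apart from Fbln1, which was chosen on this contrast and is not tested, no gene shown passed an adjusted p of 0.05 in edgeR's test.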

How the data were processed

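RNA-seq of 7 libraries was analysed from 1 table of raw read counts per gene symbol, deposited by the authors. Per the labels' protocols, cDNA was made from polyadenylated RNA with a SMART-Seq kit, amplified, and cut and tagged with transposase. Molecular identifiers are not named there, so reads copied by PCR may be counted more than once. STAR 2.7.1a and featureCounts 1.6.2 and the builds GRCm38/mm10 and GRCh38/hg38 are named in the submitters' processing notes. The annotation, strand setting and handling of multi-mapping reads are not given in the sources used here. Columns were matched to samples by library name, and replicates are numbered by title. Of the symbols, 24 occurred on several rows; the row of highest total kept the symbol.

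Counts were tested by quasi-likelihood in edgeR (version 4.0.16, under R 4.3.3) over all libraries, with the group as the only factor, TMM scaling, the default filter, robust dispersions and Benjamini-Hochberg adjustment at 0.05. It was tested on simulated data. Log2 CPM used a prior count of 2. The SE is the log2 fold change divided by the root of F. Every pair of libraries differed beyond sampling noise (chi-square per gene of at least 50.7). Alternatives were other scalings and filters, DESeq2 1.42.0, limma-voom with quality weights (limma 3.58.1), a replicate block and each library left out. Members and lists were chosen with earlier results of these data known. Named are all members, 10 set partners, up to 3 partners a direction of smallest p without overlap, and the 5 genes nearest to Fbln1. Of the 9 members, 6 had a window of the RefSeq promoter table searched. Eln and Loxl1 had no window there, and Lox was left out of the search.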

Additional observations from a re-analysis of the deposited data

How the results depend on the processing

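In edgeR 0 genes passed the adjusted threshold under either other scaling or filter. The number was 201 with DESeq2 (1794 and 2169 genes had an unadjusted p under 0.05 in edgeR and DESeq2), 0 with limma-voom with quality weights and 146 with limma-voom under robust shrinkage, which was chosen after seeing the data; the cause was not tested. With each library left out in turn it was 0 to 1. DESeq2 gave an adjusted p to 10062 genes, and to none of Fbln2, Eln, Lox, Fbn2, Emilin1, Emilin2, Loxl2 and Lmo2. Among the members the number was 1 with DESeq2 (Fbln1, which is no test, since its level chose it) and 0 in the other alternatives, and among the partners it was 1 with DESeq2 (Timp3, log2 fold change 1.17, adjusted p 0.0235) and 0 in the others. Deviations of same-numbered libraries from their group means correlated at -0.09, 0.00 and 0.01 by title and at -0.09, 0.01 and -0.13 by library name. These few correlations showed no pairing by number and cannot settle whether libraries were prepared together. With a replicate block by either numbering 1 gene passed, and 849 (title) or 1148 (library name) genes had an unadjusted p under 0.05. The log2 fold change of Lox was -0.28 with library totals, that of Adamts10 0.15 with limma-voom with and without robust shrinkage, and that of Mfap5 0.11 with the replicate block by library name. With single libraries left out, Lox ranged from -0.13 to 0.32, Adamts10 from -0.96 to 0.24, Mfap5 from -0.72 to 0.0788 and Mfap2 from -0.39 to 0.15. Of 416 alternative fold changes of named genes, 405 kept their direction and side of the threshold, or for genes described without a test stayed within the replicate SD. Scarce genes (Lox, Eln, Fbln2) rest on 27 to 195 counts a library, which limits their precision.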
